A study of Homo sapiens with 30 samples.

Results

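The genes described here are the cytosolic ribosomal protein genes, which encode the protein part of the ribosome that translates nuclear mRNAs. They were chosen by symbol: RPS or RPL followed by a number, with an optional A, X or L and a further digit, plus RPLP0, RPLP1, RPLP2 and RPSA. The rule found 87 of the 39126 genes in the whole-cell table, 34 with small-subunit symbols and 53 with large-subunit symbols, and 86 of the same identifiers were analysed among the 55548 genes of the nuclear table. In all, 84 members passed the filter on low counts in the whole-cell libraries and 82 in the nuclear ones. RPL10L and RPL12L3 were among those that did not pass in whole-cell RNA, and RPS10L was among those that did not pass in nuclear RNA.

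Hues6 is a human embryonic stem cell line, and its wild type (WT) and a QKI knockout (KO) derivative were differentiated to cardiomyocytes. QKI encodes an RNA-binding protein that regulates splicing. Poly(A) RNA was sequenced from 3 libraries per genotype on day 0 (D0, pluripotent cells), day 4 (D4, cardiac progenitors) and day 8 (D8, cardiomyocytes), and nuclear RNA from 3 libraries per genotype at D8. For differentiation WT cells received 1.5 uM CHIR, an activator of WNT signalling, and KO cells 1.25 uM, with 1.5 ng/mL BMP4 and later the WNT inhibitor C59 in both, so genotype and CHIR dose cannot be told apart at D4 and D8. The protocol in the labels gives none of these agents for D0, which was grown in FTDA medium. The 293T embryonic kidney line given a non-targeting or a QKI siRNA, 3 libraries each, enters only through a deposited table of exon events. The labels do not state how many clones the KO line comes from or whether the libraries come from separate cultures, so every p-value reflects the spread among these libraries alone, which may be technical.

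Each ribosome holds 1 copy of most ribosomal proteins, and cells make the set in balanced amounts. Most of these mRNAs begin with a terminal oligopyrimidine (TOP) tract, a C followed by a run of C and T bases, through which the mTOR pathway and the protein LARP1 set their translation and stability. Ribosomal protein genes also host many small nucleolar RNAs in their introns, and several have relatives with tissue-restricted expression, such as RPL3L in heart and skeletal muscle and RPL10L in testis.

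The start sites of members that carry the results below are shown to make this shared feature visible. RefSeq promoter sequences (GRCh38.p14) matched 67 of the 87 members by symbol, with 83 listed starts. Each stretch holds 12 bases before and 13 bases from the listed start, in the direction of transcription, and capitals mark a TOP tract from the start as far as it runs within the stretch. The first 6 have one and the other 4 do not.
RPS24 (chr10:78033851-78033875, plus strand): cgaatcgtggttCTCTTTTCCTCCT
RPS6 (chr9:19380224-19380248, minus strand): cggaagttggccCTCTTTTCCgtgg
RPLP0 (chr12:120201099-120201123, minus strand): cgggcgcgaggcCCTTCTCTCgcca
RPL29 (chr3:51995883-51995907, minus strand): cgcagcccctttCTCTTCCggttct
RPL39 (chrX:119791618-119791642, minus strand): ttccgccagcttCCCTCCTCTTCCT
RPL22L1 (chr3:170870183-170870207, minus strand): ggccgtagcttcCTCTCTgctctcg
RPS4X (chrX:72277236-72277260, minus strand): gtctccagccccaatttctacgcgc
RPL7L1 (chr6:42879604-42879628, plus strand): aagtgcggcgccgtagctaggagcg
RPS27L (chr15:63157465-63157489, minus strand): ttgatgccgagcgcagatcgcttgc
RPL26L1 (chr5:172958717-172958741, plus strand): cttccaggggtcggcgaacgaaacg

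The TOP motif was searched on the transcribed strand as a C exactly at a listed start followed by at least 4 bases that are C or T, and a gene counted if any of its starts held it. It was found in 47 of the 67 matched members (70.1%) against 5.14% of all 27305 genes of the promoter table. Among starts it was present at 56.6% of the 83 member starts and 4.07% of all 35116. Tracts in members were 5 to 19 bases long, with a median of 8. Mitochondrial ribosomal protein genes, which serve the separate ribosome inside mitochondria, held it in 6 of 69 genes. A gene without a match has only no such letters at the listed start, and its use of other starts was not examined.

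Total counts ran from 40001076 to 89948185 in whole-cell libraries and from 6549676 to 15030590 in nuclear ones. QKI was lower in all 3 KO libraries at D0, at 39.4 ± 3.34 CPM (counts scaled to library size; SD, n = 3) against 293.2 ± 7.39 in WT, and at D4, at 78.2 ± 10.2 against 146.4 ± 8.87. At D8 it was 335.1 ± 5.30 in the libraries labelled KO and 323.8 ± 41.9 in WT (edgeR adjusted p = 0.66), and in nuclear RNA it was higher in the libraries labelled KO, at 499.3 ± 30.6 against 157.6 ± 24.7 (adjusted p = 7.8e-10). QKI mRNA was thus not lower under the KO label at D8, and every direction drawn there refers to the label. These counts do not measure QKI protein. The 6 pluripotency markers summed to 6811 to 7984 CPM at D0, and the 8 cardiomyocyte markers summed to 9002 to 29519 CPM in D8 whole-cell RNA, with no marker of either list at 0 there. In the deposited exon tables the effective length of a skipped form is 150 bases at D0 and 100 bases at D4 and D8. The part of this difference in the D4 against D0 results was not tested.

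As a share of all counts, the 87 members took most at D0, least at D4 and an intermediate share at D8. WT D0 libraries gave 7.09%, 7.02% and 8.52% and KO D0 libraries 5.60%, 6.61% and 6.83%, so the genotypes did not overlap. WT D4 libraries gave 3.61%, 4.39% and 4.73% and KO D4 libraries 4.30%, 4.37% and 4.40%, so the KO values lay inside the WT range. WT D8 libraries gave 6.55%, 6.84% and 6.88%, all above the libraries labelled KO at 5.57%, 5.54% and 5.45%. Nuclear libraries held the smallest shares, 2.01%, 2.03% and 2.06% in WT and 1.87%, 1.92% and 1.72% in those labelled KO, again without overlap. These are descriptions with no test. In bulk RNA, fewer cells with high levels and less ribosomal protein mRNA per cell cannot be told apart.

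**Figure D1:**
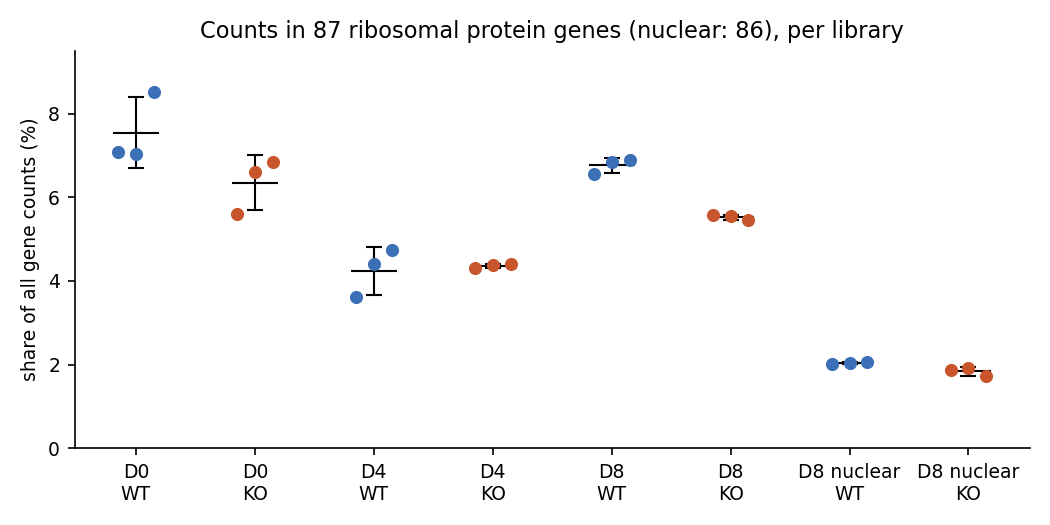
Share of all gene counts (%) that fell in ribosomal protein genes, 1 point per library, with the mean and SD of 3 libraries per group as a bar and whiskers. D4 libraries lie between 3.61% and 4.73% and all D0 and D8 whole-cell libraries lie above them.

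Mitochondrially encoded mRNAs moved in the opposite direction in the same libraries, at 3.60% ± 0.424 of counts in WT D0, 17.3% ± 1.70 in WT D4 and 7.56% ± 0.635 in WT D8 (SD, n = 3). In KO they took 2.82% ± 0.499, 11.4% ± 0.871 and 9.19% ± 0.586. Without them the members' mean share was 7.82% in WT D0, 5.12% in WT D4 and 7.31% in WT D8, so the order of the days was kept. Counts assigned to the 840 listed ribosomal protein pseudogenes were a small fraction beside the members, at group means from 0.0468% to 0.0713% of whole-cell counts.

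In WT the members fell together from D0 to D4: 74 of 84 were lower and 4 were higher, where 81.0% of all 21761 tested genes were called, 39.1% lower and 42.0% higher (edgeR quasi-likelihood test, Benjamini-Hochberg adjusted p under 0.05 over all genes). The median log2 fold change of the members was -1.05, against 0.08 over all genes tested. Both subunits took part, with medians of -1.03 for 33 small-subunit and -1.06 for 51 large-subunit genes. In KO 73 of 84 were lower and 5 higher, with a median of -0.84 against 0.12 over all genes, where 82.6% of all genes were called, 38.5% lower and 44.1% higher. With library totals in place of TMM factors the all-gene median went from 0.12 to 0.33 in KO and from 0.08 to 0.19 in WT, and that of the members to -0.62 and -0.93.

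The deepest fall was that of RPL7, a large-subunit protein that contacts 5S ribosomal RNA. RPL7 read 705.6, 624.5 and 871.2 CPM in the WT D0 libraries and 49.4, 58.7 and 62.0 CPM in WT D4, without overlap. Its log2 fold change was -3.70 (SE 0.13, edgeR adjusted p = 2.3e-16) in WT and -3.62 in KO. RPL7A, a large-subunit protein whose gene hosts small nucleolar RNAs, went from 773.9, 716.6 and 962.4 CPM to 101.0, 116.8 and 119.1, which is -2.86 on the log2 scale (SE 0.11, edgeR adjusted p = 1.8e-15). RPL39, a short large-subunit protein of the exit tunnel, went from 769.9, 748.9 and 1014.6 CPM to 133.0, 172.6 and 190.1, a log2 fold change of -2.35 (SE 0.12). RPS10 (-2.52 in WT) and RPL17 (-2.44 in WT) completed the 5 lowest at WT D4, while in KO the list was RPL7, RPS10 (-2.84), RPL39L (-2.43), RPL17 (-2.41) and RPL22L1 (-2.39). The falls of these genes exceeded the members' median by more than 1 log2 unit.

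Few members went the other way at D4. RPL26, a large-subunit protein, read 56.2, 55.6 and 68.7 CPM in WT D0 and 138.8, 171.5 and 181.5 CPM in WT D4. All D4 values were above all D0 values, and the log2 fold change was 1.44 (SE 0.10, edgeR adjusted p = 1.0e-11) in WT and 1.45 in KO. RPL13 (0.88 in WT, 0.91 in KO) and RPS2 (0.53 in WT, 0.36 in KO) were also higher in both genotypes. RPL36A rose from 2.54 to 3.55 CPM at WT D0 to 16.0 to 19.1 CPM at WT D4, a log2 fold change of 2.56 (SE 0.16). RPL3 was higher in KO only by the test within KO, at 0.32, against 0.07 in WT (edgeR adjusted p = 0.51), and the difference between genotypes gave an adjusted p of 0.14. With library totals in place of TMM factors the KO values of RPS2 and RPL3 became 0.57 and 0.54.

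Some of these levels are uncertain because counting can split or drop reads. RPL3 read 38.2, 35.8 and 45.5 CPM in WT D0 and RPSA 23.6, 22.6 and 27.4 CPM, and RPS10, RPL17 and RPL36A were at most 157.9 CPM in any whole-cell library. These 5 genes have near-identical processed copies, as do many other members: the table lists 31 pseudogenes of RPL7 and 41 of RPL7A. Of the 5 genes, RPL3 has 7 listed, RPS10 9, RPL36A 22, RPL17 28 and RPSA 43. Reads of RPL7 and RPL7A, the deepest falls at WT D4, can therefore be split in the same way. The listed pseudogenes of RPL7 summed to a mean of 6.59 CPM at WT D0 and 3.66 at WT D4. Those of RPL7A summed to 13.9 and 5.55 CPM. The part of split or dropped reads in these falls was not tested. RPS10, RPL17 and RPL36A have annotated read-through transcripts with a neighbour gene.

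From D4 to D8 the members rose again, with 71 of 84 higher and 5 lower in WT, where 68.8% of all genes were called, 35.0% higher and 33.8% lower. The WT median log2 fold change was 0.61, against 0.01 over all genes. In KO 71 were higher and 3 lower (75% of all genes were called, 36.1% higher and 38.9% lower), with a median of 0.47 against -0.06. Library totals moved these KO medians to 0.31 and -0.22. RPL23, a large-subunit protein, read 429.4, 525.1 and 577.1 CPM in WT D4 and 1010.2, 1040.9 and 1030.4 CPM in WT D8, a change of 1.01 on the log2 scale (SE 0.09, edgeR adjusted p = 5.5e-09). Every D8 library was above every D4 library. RPL37 (1.00), RPL7 (0.98), RPL9 (0.92) and RPL12 (0.87) followed in WT among members above a mean of 10 CPM. In the libraries labelled KO the highest were RPS27L (0.96), RPL13 (0.86), RPL23 (0.84), RPL26L1 (0.84) and RPL15 (0.83).

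The members that fell from D4 to D8 included genes of uncertain counting. RPSA, the small-subunit protein also named laminin receptor, went from 30.1, 28.9 and 25.8 CPM in WT D4 to 9.68, 11.7 and 12.1 CPM in WT D8, a change of -1.34 on the log2 scale (SE 0.10, edgeR adjusted p = 2.1e-10), and its KO change was -1.79. RPL36A (-1.30 in WT, -2.14 in KO) and RPL3 (-1.09 in WT, -1.27 in KO) fell in both genotypes. RPL22L1 was lower in WT by 0.33 on the log2 scale (edgeR adjusted p = 0.038), a call lost with library totals (adjusted p = 0.057), with TMM factors computed without ribosomal protein and mitochondrially encoded genes (0.068), and without any of 5 libraries in turn.

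The order of days was the same for the 3 stalk proteins, which recruit translation factors to the large subunit. RPLP0 gave 2613, 2704 and 3234 CPM in WT D0, 1446, 1713 and 1808 in WT D4, and 2362, 2493 and 2391 in WT D8. D4 lay under both other days, and D8 lay under D0, without overlap. RPLP1 and RPLP2 had log2 fold changes of -1.09 and -0.86 from D0 to D4 and of 0.41 and 0.45 from D4 to D8 in WT. All 4 of those changes passed the edgeR test (adjusted p from 8.4e-10 to 8.0e-04).

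Before differentiation, at D0, the KO libraries held less of these mRNAs: 40 of 84 members were lower and 1 was higher, where 42.3% of all tested genes were called, 20.9% lower and 21.4% higher. The members' median log2 fold change was -0.23, against -0.01 over all genes. Large-subunit genes were called lower in 29 of 51 cases and small-subunit genes in 11 of 33, with medians of -0.26 and -0.20. The count rests in part on WT replicate 3 and KO replicate 1: it was 13 lower and 3 higher without the first, and 16 lower and 2 higher without the second.

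RPL37, a zinc-binding large-subunit protein, showed the deepest called fall at D0. WT libraries read 127.0, 128.9 and 136.7 CPM and KO libraries 75.3, 81.0 and 70.9 CPM, so the groups were well apart. The log2 fold change was -0.79 (SE 0.07, edgeR adjusted p = 2.8e-08). RPL29, a large-subunit protein, read 914.4, 963.2 and 1174.2 CPM in WT and 630.0, 768.8 and 727.7 CPM in KO (-0.52, SE 0.09, edgeR adjusted p = 1.5e-04). All KO values were under all WT values. RPL7A (-0.49), RPL38 (-0.48) and RPS19 (-0.43), the last a small-subunit protein mutated in Diamond-Blackfan anaemia, completed the 5 lowest, and their groups did not overlap either.

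The only higher call at D0 was RPL39L, a relative of RPL39 known from testis and stem cells. It read 33.8, 39.1 and 47.8 CPM in WT and 68.9, 73.7 and 78.6 CPM in KO, with no overlap, and the log2 fold change was 0.87 (SE 0.10, edgeR adjusted p = 1.1e-06). Its partner RPL39 was at 0.12 (adjusted p = 0.43).

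Genes with neighbouring roles were read in the same libraries, beside 20.9% lower and 21.4% higher among all genes. Of 40 ribosome assembly and rRNA synthesis genes, 30 were higher in KO and 3 lower, with a median log2 fold change of 0.39. The largest changes were those of BOP1 (1.28), RRS1 (0.98), RRP12 (0.88) and UTP20 (0.78), all assembly factors. Of 76 mitochondrial ribosomal protein genes, 32 were higher and 2 lower (median 0.19). Of 23 tested mRNAs with a TOP tract that do not encode ribosomal proteins, mostly translation factors, 0 were higher and 9 lower by edgeR (median -0.18), led by TOMM20 (-0.62). Of 16 genes of mTOR signalling and of ribosome gene control, 8 were higher and 1 lower (median 0.20). Whether these lists differ from the members was not tested.

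At D4 the genotypes were hardly apart in these genes: 1 of 84 members was higher and 1 lower, where 28.4% of all genes were called, 16.3% higher and 12% lower. The median was -0.01, against -0.00 over all genes. RPL39L read 9.13, 12 and 10.9 CPM in WT and 12.9, 14.7 and 13.4 CPM in KO, a change of 0.36 on the log2 scale (SE 0.11, edgeR adjusted p = 0.023). The groups did not overlap, but the call was lost without WT replicate 1 (0.25, adjusted p = 0.15) or KO replicate 2 (0.30, adjusted p = 0.10). RPS4X, the X-linked form of a small-subunit protein, read 1022.7, 1270.0 and 1376.6 CPM in WT and 953.7, 992.7 and 968.6 CPM in KO (-0.33, SE 0.09, edgeR adjusted p = 0.0089), again without overlap, and was not called without WT replicate 3 (-0.24, adjusted p = 0.068). The count itself was 1 without WT replicate 3 and 1 without KO replicate 2, and with library totals it was 2 higher and 1 lower.

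The KO effect differed between D0 and D4 for 15 members, 14 toward higher values in KO at D4 and 1 toward lower, where 39.1% of all genes were called, 20% and 19.1% in these directions. RPL37 had the largest such difference, 0.91 on the log2 scale (SE 0.10, edgeR adjusted p = 5.9e-07). Its KO libraries changed little from D0 to D4 (log2 fold change -0.12, adjusted p = 0.13) while its WT libraries fell by 1.03 on the log2 scale. RPL39L was the member whose KO effect was smaller at D4, by -0.52 (SE 0.15, adjusted p = 0.011). The count was 9 without D0 WT replicate 3, 9 without D0 KO replicate 1 and 27 without D4 WT replicate 3.

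**Figure D2:**
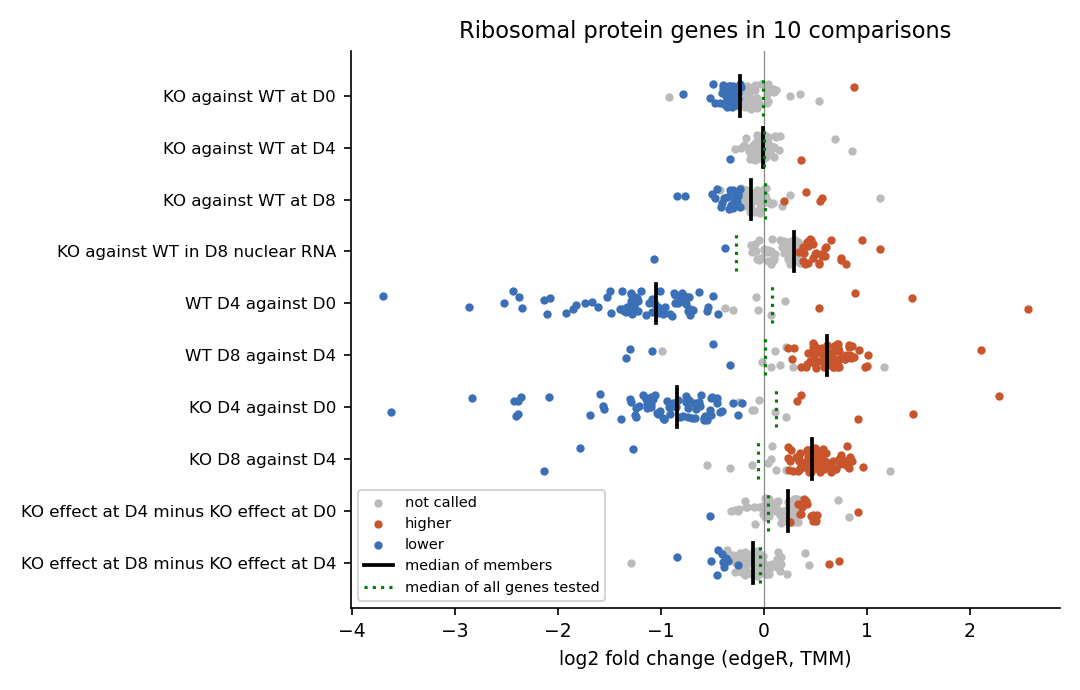
Log2 fold change (edgeR with TMM factors) of every tested member in 10 comparisons, 1 point per gene, coloured by call at an adjusted p under 0.05. The black bar is the members' median and the green dotted bar that of all genes tested; the black bar lies at -1.05 for WT D4 against D0 and at 0.61 for WT D8 against D4.

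At D8, 22 of 84 members were lower and 4 higher in the libraries labelled KO, where 55.6% of all genes were called, 26.2% lower and 29.4% higher. The share of lower members was thus close to the background in this fit, and it depended on the setting. The median was -0.13, against 0.01 over all genes. With library totals 50 members were lower and 2 higher, where 11926 of all genes were called and 37.6% of those were higher. The median of all genes moved to -0.12 and that of the members to -0.26. Fitting the 6 libraries of D8 alone gave 46 lower and 3 higher of 83, where 48.9% of 10804 called genes were higher. Leaving the low-count filter out gave 36 lower and 5 higher of 87, where 50.3% of 11875 called genes were higher.

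RPS4X had the deepest fall at D8, from 2170, 2229 and 2151 CPM in WT to 1190, 1247 and 1221 CPM in the libraries labelled KO. The ranges were far apart, and the log2 fold change was -0.84 (SE 0.09, edgeR adjusted p = 1.5e-07). RPS6, the small-subunit protein phosphorylated by S6 kinase, read 1509, 1666 and 1681 CPM in WT, and the libraries labelled KO read 1179, 1200 and 1112 CPM (-0.48, SE 0.10, adjusted p = 3.9e-04). RPL7 (-0.46), RPL7A (-0.42) and RPS3 (-0.41), a small-subunit protein at the mRNA entry, were the next lowest members above 10 CPM, all without overlap. RPL36A and RPSA, below that level, were at -0.77 and -0.50, and among the stalk genes RPLP0 was lower (-0.26, edgeR adjusted p = 0.011) while RPLP1 and RPLP2 were both at -0.09 (adjusted p = 0.45 and 0.47). With library totals RPLP1 was called lower (-0.22, adjusted p = 0.043).

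All 4 members called higher at D8 were relatives of another member. RPS27L, a relative of RPS27 and a known target of p53, read 36.5, 31.5 and 30.8 CPM in WT, and the libraries labelled KO read 46.0, 49.6 and 50.05 CPM. These did not overlap, and the log2 fold change was 0.56 (SE 0.09, edgeR adjusted p = 2.0e-05), with RPS27 at -0.21 (adjusted p = 0.15). RPL26L1 read 17.2, 17.0 and 17.3 CPM in WT, and the libraries labelled KO read 21.8, 26.1 and 27.2 CPM (0.54, SE 0.09, adjusted p = 4.1e-05), with RPL26 at -0.20 (adjusted p = 0.080). Again all values labelled KO were higher.

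RPL22L1 read 19.9, 20.2 and 20.8 CPM in WT, and the libraries labelled KO read 24.1, 28.3 and 28.2 CPM, a change of 0.41 on the log2 scale (SE 0.14, edgeR adjusted p = 0.015), while RPL22, whose protein is known to repress RPL22L1, was lower at -0.39 (SE 0.08, adjusted p = 5.1e-04). The ranges of RPL22L1 did not overlap, yet its call was lost with library totals (0.27, adjusted p = 0.080) and without replicate 2 or 4 of the libraries labelled KO (adjusted p = 0.055 and 0.051). RPL7L1 was at 0.19 (SE 0.06, adjusted p = 0.0053) and RPL7 at -0.46. The RPL7L1 call was lost with library totals (0.06, adjusted p = 0.39) and in the fit of D8 libraries alone (0.15, adjusted p = 0.064). RPL39L was at 0.25 (adjusted p = 0.056) and RPL39 at -0.17 (adjusted p = 0.21). The partners RPS27, RPL26 and RPL39 were called lower with library totals (-0.34, -0.33 and -0.31, adjusted p = 0.016, 0.0049 and 0.025), in the fit of D8 libraries alone (-0.25, -0.24 and -0.22, adjusted p = 0.0071, 0.0058 and 0.0069) and without the filter.

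**Figure D3:**
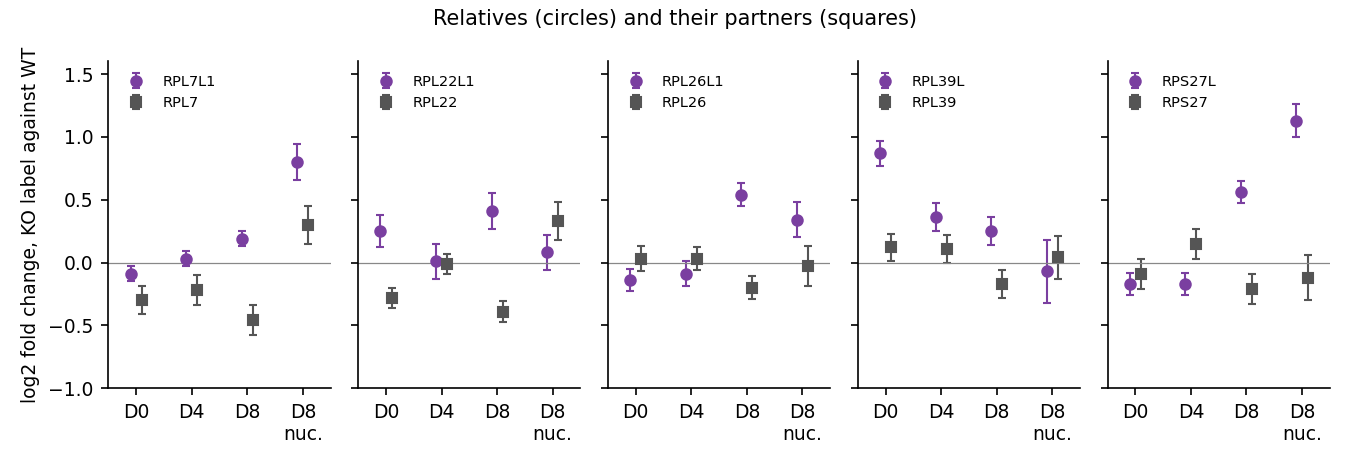
Log2 fold change between the KO label and WT, with its SE as whiskers, for 5 relatives (purple circles) and their partners (grey squares) by day and in D8 nuclear RNA. At D8 RPS27L (0.56), RPL26L1 (0.54) and RPL22L1 (0.41) lie above 0 and RPL22 (-0.39) and RPL7 (-0.46) below it.

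The remaining relatives had levels near 0 in whole-cell RNA. RPL3L had 119 counts over the 18 whole-cell libraries. At D8 its whole-cell level was at most 0.0927 CPM in any library, in RNA where the cardiomyocyte markers were high. RPL10L had 23 counts at D0 and 0 counts in all 12 whole-cell libraries of D4 and D8. A count of 0 allows up to 0.0719 CPM per library there (3 counts, counting error only). In D8 nuclear RNA RPL10L had 33 counts over the 6 libraries, at 0.188 to 1.11 CPM. RPS10L and RPL12L3, named as pseudogenes of RPS10 and RPL12 in the reference table, had 133 and 19 counts in whole-cell RNA.

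The KO effect differed between D4 and D8 for 13 members, 2 toward higher and 11 toward lower values at D8, where 41.5% of all genes were called, 19.6% and 21.9% in these directions. RPS27L (0.73, SE 0.13, edgeR adjusted p = 1.2e-04) and RPL26L1 (0.63, SE 0.13, adjusted p = 7.5e-04) were the 2 higher ones. RPL36A (-0.84), RPS4X (-0.51) and RPL27A (-0.46) had the largest differences in the other direction. DESeq2 gave 3 higher and 6 lower, and library totals, which shifted the all-gene median from -0.04 to -0.24, gave 2 higher and 34 lower. The count was 7 without D4 KO replicate 2 and 8 without D4 KO replicate 3, D8 WT replicate 4 or D8 KO replicate 4, each left out in turn.

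Cell type markers moved with the label at D8. The 8 cardiomyocyte markers summed to 9002 to 15991 CPM in WT but to 25219 to 29519 CPM under the KO label, and 6 of 8 were higher there and 1 lower. The 6 pluripotency markers summed to 1322 to 1744 CPM in WT but to 469.2 to 566.2 CPM under the KO label, with 5 of 6 lower. The 5 surface ectoderm and amnion markers summed to 450.4 to 891.9 CPM in WT but to 10.6 to 19.0 CPM under the KO label, with all 5 lower. Endothelium markers summed to 277.8 to 332.2 CPM in WT but to 611.5 to 665.2 CPM under the KO label, with 3 of 4 higher. Endoderm markers (71.2 to 116.1 CPM and 117.0 to 136.1 CPM) were higher for 4 of 5 and lower for 1, and smooth muscle and fibroblast markers (621.5 to 836.5 CPM and 1239 to 1447 CPM) were higher for 3 of 5, with COL3A1 at 4.88 on the log2 scale. No marker of these 6 lists was at 0 in either group. The part of these differences in the ribosomal protein results was not tested.

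Beside 26.2% lower and 29.4% higher among all genes, other ribosomal lists at D8 gave 56 higher and 2 lower of 76 mitochondrial ribosomal protein genes (median log2 fold change 0.32), led by MRPL34 (0.99) and MRPL41 (0.97). Assembly factors gave 7 higher and 8 lower of 40, and other TOP mRNAs 3 higher and 6 lower of 23. Among the members, those with a TOP start gave 17 lower and 1 higher of 47, with a median of -0.19, and those matched without one gave 2 lower and 3 higher of 19, with a median of -0.03. The 3 higher ones without a TOP start were RPS27L, RPL26L1 and RPL7L1, all relatives of another member. At D0, where 20.9% of all genes were lower, the same split gave 25 lower of 47 (median -0.28) and 7 lower of 19 (median -0.21). The difference between the splits was not tested.

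In D8 nuclear RNA 29 of 82 members were higher in the libraries labelled KO and 2 were lower with TMM factors, where 64.0% of all 30481 genes were called, 31.2% higher and 32.9% lower. With library totals the split was 5 higher and 28 lower. The TMM factors of these libraries ran from 1.02 to 1.25 in WT and from 0.771 to 0.92 in those labelled KO, and the median of all genes was -0.27 with them and -0.71 without. The members' median was 0.29 with the factors and -0.15 without, so its sign depended on the scaling. The count also fell to 12 without WT replicate 2 and to 11 without WT replicate 3, and DESeq2 gave 49 higher and 0 lower.

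RPS27L led the higher members in nuclear RNA, at 86.5, 94.9 and 85.7 CPM in the libraries labelled KO and 43.2, 39.2 and 39.4 CPM in WT. The groups were apart, and the log2 fold change was 1.13 (SE 0.13, edgeR adjusted p = 1.6e-08), or 0.69 with library totals. RPL37 read 88.7, 106.9 and 95.8 CPM against 55.2, 45.8 and 49.8 CPM (0.95, or 0.51 with totals), also without overlap. RPL7L1 (0.80, or 0.35), RPL15 (0.75, or 0.31) and RPS2 (0.75, or 0.31) followed, and all 5 passed the edgeR test under both scalings. RPLP0 (0.60) and RPLP1 (0.59) were called with TMM factors and not with totals (0.15 and 0.16, adjusted p = 0.19 and 0.15), and RPLP2 was at 0.07 or, with totals, at -0.37.

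The 2 lower calls in nuclear RNA were RPS29 and RPL3L. RPS29, a small-subunit protein, was at -0.38 (edgeR adjusted p = 0.037), its groups overlapped, and DESeq2 gave -0.03 (adjusted p = 0.94). RPL3L read 3.87, 5.48 and 5.17 CPM in WT, and the libraries labelled KO read 1.98, 1.81 and 3.11 CPM, without overlap, at -1.07 (SE 0.27, edgeR adjusted p = 0.0012) on 202 counts in all, and DESeq2 gave -0.74 (adjusted p = 0.10). The 8 cardiomyocyte markers summed to 3776 to 4856 CPM in WT nuclear libraries and 14006 to 16457 CPM in those labelled KO, and all 8 were higher. Endoderm markers summed to 14.6 to 17.7 CPM in WT nuclear libraries and 175.8 to 460.6 CPM in those labelled KO, with 4 of 5 higher and 1 lower. Endothelium markers summed to 56.5 to 65.9 CPM and 427.7 to 475.8 CPM, with 1 of 4 higher and 3 lower. Pluripotency markers were lower for 5 of 6, surface ectoderm and amnion markers for 4 of 5, and smooth muscle and fibroblast markers were higher for 2 of 5 and lower for 2. The part of these differences in the nuclear results was not tested.

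Nuclear and whole-cell libraries come from separate tables, so their ratio is descriptive. Over the 38917 genes in both tables, the members' median log2 ratio of nuclear to whole-cell CPM at D8 was -1.53 in WT (quartiles -2.10 and -0.92) and -1.42 under the KO label (quartiles -1.84 and -0.86). All genes with enough counts had medians of 0.11 and 0.18. Of 81 members with a ratio, 73 were below 0 in each genotype. Other TOP mRNAs lay lower still, at -2.01 and -1.52, mitochondrial ribosomal protein genes at -0.81 and -0.69, and long noncoding hosts of small nucleolar RNAs at -0.01 and 0.01. Genes under 30 counts over a group had no ratio.

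The members spread widely in this ratio. RPS2 had the lowest WT value, at 225.6 nuclear against 2574 whole-cell CPM (-3.51), followed by RPS16 (-2.94), RPS4X (-2.72), RPL4 (-2.69) and RPL15 (-2.64). At the other end RPSA (1.33), RPS10 (1.01), RPL36A (0.99), RPL3 (0.84) and RPL39 (0.81) had more nuclear than whole-cell CPM in WT. All of these but RPL39 are among the genes of uncertain counting named above. RPS4X, with the largest shift of those named here, was at -2.72 in WT against -1.71 under the KO label. Its nuclear level was 350.8 and 360.3 CPM on this scale, while its whole-cell level was 2313 and 1178 CPM. RPL37 went from -1.19 to -0.44.

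**Figure D4:**
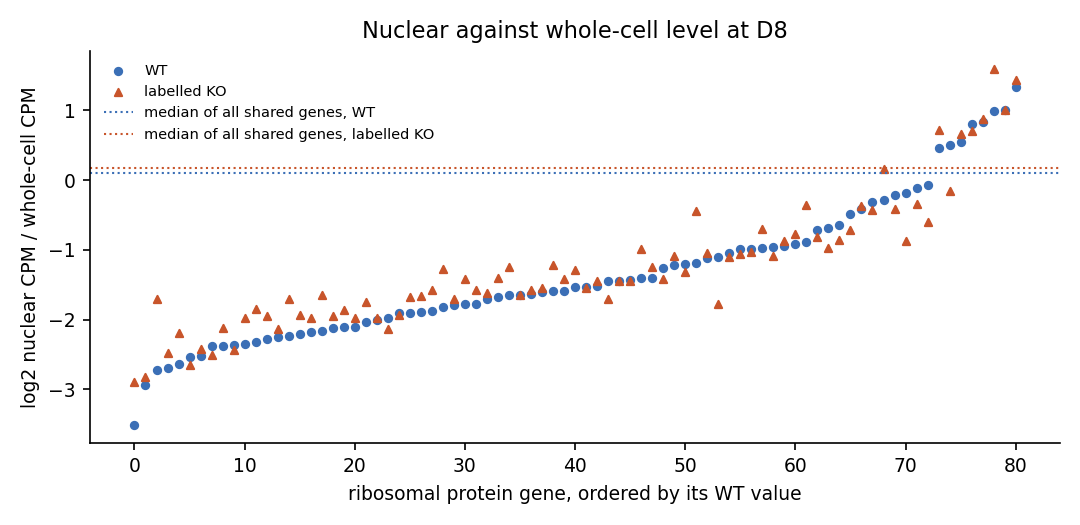
Log2 ratio of nuclear to whole-cell CPM at D8 for 81 ribosomal protein genes, ordered by their WT value (blue circles), with the value in libraries labelled KO as orange triangles. Most points lie under the dotted medians of all shared genes (0.11 and 0.18), and the WT values run from -3.51 to 1.33.

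Skipped exons were read from the authors' deposited tables, in which 3 libraries make up one arm and 3 the other, and neither arm is named; they are called first and second here in the tables' order. In the authors' deposited tables QKI junction reads, per all junction reads of an arm, were in the second arm 6.78% of the first for D0, 33.8% for D4, 80.2% for D8 and 19.7% for 293T. No genotype is assigned to an arm here. In the authors' deposited D0 table a 66-nt RPS24 exon before a 144-nt exon had 75138, 61226 and 99459 inclusion reads (first arm). The second arm had 54104, 72580 and 87419. Gene counts of RPS24 at D0 were 70094, 58226 and 90454 in WT and 51028, 65650 and 77432 in KO. In this event the first arm ranked its libraries as WT did and the second as KO did, also at D4 and D8. A match of arms to groups was not tested. An event counted as changed where the authors' FDR was under 0.05, the inclusion levels of the arms lay at least 0.1 apart, and both arms averaged 10 or more junction reads in a library. In the authors' deposited tables this held for 5 of 509 member events for D0, 2 of 309 for D4, 4 of 473 for D8 and 1 of 461 for 293T. The shares over the events of all genes in the authors' deposited tables were 2.37%, 1.1%, 2.23% and 0.451%. Events that share an exon count separately.

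RPS24 carried 9 of these 12 changed events and was the member changed in every table. The gene encodes a small-subunit protein whose C-terminal end depends on very short exons near the end of its coding sequence. An 18-nt exon (hg19 chr10:79797723-79797740) and a 22-nt exon (hg19 chr10:79799962-79799983) follow a shared 111-nt exon. The same lengths, in the same order and with the same 2239 bases between their starts, are annotated in GENCODE release 29 (GRCh38, plus strand, chr10:78037965-78037982 and chr10:78040204-78040225). Their sequences are shown because each can hold the stop codon of an annotated transcript, marked in capitals.
RPS24 18-nt exon: aaaTGAagtgtctagcag
RPS24 22-nt exon: TGAgctggagattggatcacag

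In the annotated transcripts the 18-nt exon adds 3 coding bases before its stop, and the 22-nt exon, where it holds the stop, adds 0. In transcripts that hold both, the stop lies in the 18-nt exon and the 22-nt exon is noncoding.

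Inclusion of the 22-nt exon, between the 111-nt and a 56-nt exon, was lower in the second arm in each table. At D0 it was, in the authors' deposited table, 0.373, 0.37 and 0.38 in the first arm and 0.085, 0.089 and 0.076 in the second, a difference of -0.291, on 24155 inclusion and 35066 skipping reads in the first arm and 4433 and 42703 in the second. At D4 the authors' deposited table gave 0.769, 0.816 and 0.823 against 0.564, 0.556 and 0.566. At D8 the authors' deposited table gave 0.961, 0.947 and 0.938 against 0.819, 0.825 and 0.792. The arms did not overlap on any day. Taken by the tables' order of arms, levels were higher at D8 than at D4 and higher at D4 than at D0. Whether an arm is the same group in each table is not given. Second-arm D8 levels overlapped first-arm D4 levels, and the effective length differs between D0 and the later days. For 293T the authors' deposited table gave 0.341, 0.362 and 0.329 against 0.197, 0.182 and 0.193, so the second arm was again the lower one. The authors' deposited tables list the FDR of these 4 events at 0. Transcripts that reach the 22-nt exon through the 18-nt exon are read in another event. At D8 that event had 5450 inclusion reads in the first arm and 19953 in the second in the authors' deposited table. The part of this route in the lower D8 levels was not tested.

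The 18-nt exon, between the 111-nt and the 22-nt exon, moved the opposite way. At D8 its inclusion in the authors' deposited table was 0.066, 0.06 and 0.037 in the first arm and 0.372, 0.453 and 0.53 in the second, a difference of 0.397, on 4721 inclusion and 70869 skipping reads in the first arm and 23194 and 24170 in the second. At D0 the authors' deposited table gave 0.02, 0.018 and 0.018 against 0.136, 0.117 and 0.129. Means in the authors' deposited tables were 0.006 and 0.021 at D4, under the size limit, and 0.001 and 0.003 in 293T. The D0 event had 519 and 721 inclusion reads in the authors' deposited table. Its skipping reads, which join the 111-nt to the 22-nt exon, fell from 24301 to 4454. Set against the 56-nt exon, the 18-nt exon had D0 levels of 0.004 and 0.007 in the authors' deposited table, which was not a changed event. High inclusion of the 18-nt exon was thus found in the second arm at D8, with all 3 of its libraries above all 3 of the first.

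**Figure D5:**
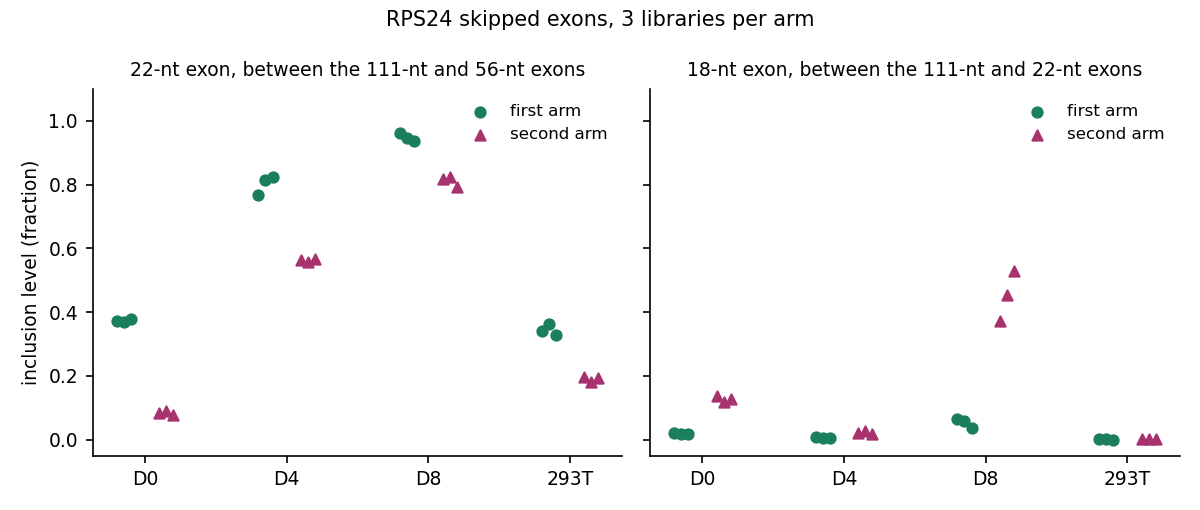
Inclusion level (fraction) of the 22-nt and 18-nt exons of RPS24 in the authors' deposited tables for D0, D4, D8 and 293T, 1 point per library, first arm as green circles and second arm as purple triangles. The 22-nt exon lies lower in the second arm in all 4 tables, and the 18-nt exon reaches 0.372 to 0.53 in the second arm at D8.

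The other RPS24 events were variants of these. At D8 the 18-nt exon, set against the 56-nt exon in the authors' deposited table, had inclusion of 0.24 and 0.493. Direct joins of these 2 exons were rare, with 2 and 17 reads in the authors' deposited table. Reads that held the 22-nt exon after the 18-nt exon numbered 5450 and 19953 there. A 25-nt form of the 22-nt exon had inclusion of 0.312 and 0.166 at D8 in the authors' deposited table. After the 18-nt exon, the 22-nt exon had 0.911 and 0.794 at D0 in the authors' deposited table. The gene-level count of RPS24 was not called between genotypes in whole-cell RNA, where its log2 fold changes were -0.20 at D0 (edgeR adjusted p = 0.12), 0.02 at D4 (0.89) and -0.13 at D8 (0.30). It was called lower at D8 with library totals (-0.26, adjusted p = 0.033) and in the fit of D8 libraries alone (-0.17, 0.022), and at D0 without the filter (-0.20, 0.017) and without KO replicate 3 (-0.30, 0.040). In D8 nuclear RNA the edgeR test with TMM factors called RPS24 higher under the KO label. That call was lost with library totals (0.13, adjusted p = 0.24) and without WT replicate 3 (0.46, 0.078).

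The other 3 changed events lay in RPL17, RPL7L1 and RPS9. A 98-nt exon of RPL17 in the authors' deposited table for D0 (hg19 chr18:47018106-47018203) had inclusion of 0.25, 0.277 and 0.239 in the first arm and 0.139, 0.143 and 0.129 in the second. A 222-nt exon of RPL7L1 in the authors' deposited table for D0 (hg19 chr6:42848599-42848820) had 0.445, 0.481 and 0.43 against 0.587, 0.583 and 0.596. A 172-nt exon of the small-subunit gene RPS9 in the authors' deposited table for D4 (hg19 chr19:54710421-54710592) had 0.485, 0.539 and 0.538 against 0.662, 0.692 and 0.679. The arms of these 3 events did not overlap, on fewer reads than the 22-nt exon of RPS24 had in the same tables. Events in the same exons of the other tables did not pass all limits, and their directions were mixed. In the authors' deposited tables RPL17 differed, second arm minus first, by 0.069 at D4 (FDR 0.013) and -0.099 at D8 (FDR 7.4e-06). RPL7L1 gave -0.022 at D4 and -0.063 at D8 (FDR 0.017 at D8), and RPS9 gave -0.058 at D0 (FDR 0.43). In 293T the authors' deposited table gave 0.009, 0.02 and 0.018 for RPL17, RPL7L1 and RPS9.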

How the data were processed

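The authors deposited raw read counts per gene for 18 whole-cell and 6 nuclear libraries. STAR, featureCounts, cutadapt, UMI-tools and DESeq, with hg19, are listed per the submitters' processing notes; versions, the strand setting and the annotation: not given in the sources used here. Skipped-exon tables deposited by the authors hold junction read counts, inclusion levels as a fraction or score between 0 and 1, and p-values with FDR. Each table's depth limits its precision, and gene totals were taken as library sizes.

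Counts were fitted with edgeR 4.0.16 (R 4.3.3): filterByExpr, TMM factors, quasi-likelihood test, 1 mean per group, all 18 whole-cell libraries in 1 fit and the 6 nuclear ones in another. Calls were two-sided at an adjusted p (Benjamini-Hochberg) under 0.05. CPM are over TMM-scaled totals; shares and nuclear ratios are over plain totals. The fit was tested on simulated counts. DESeq2 1.42.0, library totals, TMM without members and mitochondrially encoded genes, no filter, fewer libraries, a replicate block and leaving out each library were alternatives. Some genes are not reported here. Members and gene lists were chosen with earlier results of these data known. Named were the 5 highest and 5 lowest called members per comparison above a mean of 10 CPM, relatives with partners, stalk genes, RPSA, members with changed exons and QKI.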

Additional observations from a re-analysis of the deposited data

Results flagged for a closer look

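Single members whose KO effect differed between days, by the interaction test in edgeR, are listed with the size of the difference on the log2 scale. Between D0 and D4, 15 of 84 members differed, where 39.1% of all genes were called. The difference was 0.91 for RPL37, 0.52 for RPL29, 0.51 for RPL10, 0.48 for RPL7A and 0.48 for RPL38, which were lower in KO at D0, and -0.52 for RPL39L, which was higher in KO at D0. Without D0 WT replicate 3 or D0 KO replicate 1 the RPL7A difference was not called (0.34 and 0.37, adjusted p = 0.058 and 0.052).

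Between D4 and D8, 13 of 84 members differed, where 41.5% of all genes were called. The difference was 0.73 for RPS27L and 0.63 for RPL26L1, and -0.84 for RPL36A, -0.51 for RPS4X, -0.46 for RPL27A, -0.45 for RPSA and -0.41 for RPL7A. RPSA was not called without D4 WT replicate 3, D4 KO replicate 2 or D8 WT replicate 4 (adjusted p from 0.051 to 0.053). RPL7A was not called by DESeq2 (-0.37, adjusted p = 0.055) nor without any 1 of 6 libraries, and with library totals its difference was -0.62. RPL36A and RPSA are genes of uncertain counting.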

How the results depend on the processing

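Library totals changed the members called at D8 to 52, in the D4 minus D0 interaction to 35 and in the D8 minus D4 interaction to 36. They turned the nuclear median of the members to -0.15 and single nuclear values to -0.36 for RPL22L1, -0.11 for RPL26L1, -0.40 for RPL3, -0.40 for RPL39, -0.04 for RPL8 and -0.37 for RPLP2, and the D4 median to 0.06. Without the filter the counts were 41 at D8, 34 and 22 in the interactions. The D8 libraries alone gave 49, and DESeq2 gave 49 in nuclear RNA. Leaving out 1 library gave 16 to 54 at D0, 1 to 2 at D4 and, in nuclear RNA, 11 to 45, and 9 to 27 and 7 to 13 in the interactions; the D4 median became 0.02, 0.05 and 0.00. Deviations of same-numbered libraries from their group means had correlations between genotypes from -0.20 to 0.28. With 3 libraries per group these values cannot exclude pairing by number. A replicate block gave 51 calls at D0, 25 at D8, in nuclear RNA 19 and 29 and 16 in the interactions. Counts of called members in the 4 day comparisons stayed within 1.5 times under the alternatives run, while the KO D8 against D4 median went from 0.47 to 0.31 with library totals, where RPL7L1 lost its call (0.08, adjusted p = 0.22). Without mitochondrially encoded genes the mean shares were 5.12% (WT D4), 4.92% (KO D4), 7.31% (WT D8), 6.08% (labelled KO D8) and 2.06% (WT nuclear), and the median nuclear ratios -1.62 and -1.52. At an inclusion difference of at least 0.2, changed events in the authors' deposited tables numbered 1 for D0, 1 for D4, 2 for D8 and 0 for 293T. Nuclear libraries had fewer counts; whether depth limits their calls was not tested.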
